A study of Mus musculus with 18 samples.

Results

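The 9 genes described here handle iron in macrophages, and lipocalin-2, the protein that withholds bacterial iron carriers, is among them. The members were Lcn2, Slc11a1, Slc11a2, Slc40a1, Fth1, Ftl1, Hmox1, Tfrc and Ireb2, which were chosen by name and made up 9 of the 13598 genes with a value in the series. All 9 passed the filter on low values, and 9707 genes were tested in all. Slc40a1 passed with 8 libraries of at least 1 FPKM (a fragment count normalized to transcript length and library size) out of 18, Lcn2 with 17 and the other 7 members with 18.

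RNA was measured by bulk RNA-seq in mouse peritoneal macrophages, with 3 libraries in each of 6 groups. The cells came from TLR4-WT mice, TLR4-K730R mice or TLR4-K810R mice on the C57BL/6 background, and were mock-treated (control) or treated with LPS, the endotoxin of Gram-negative bacteria, at 100 ng/ml for 6 h. Each mutant carried a lysine to arginine codon change, placed by CRISPR/Cas9 in exon 3 of Tlr4, the gene of the LPS receptor, so the change was present in every cell of the animal. The methods of the study describe peritoneal macrophages elicited with thioglycolate. Age and sex were not given in the sources used here, nor was it stated that the 3 libraries of a group came from separate animals, so the p-values measure the spread between these libraries, which may be technical. The comparisons asked what LPS did to the iron genes in each genotype, and whether either codon change altered their level or their response.

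The uptake, storage and export of iron by macrophages use separate proteins. The transferrin receptor, product of Tfrc, brings in transferrin-bound iron, the transporters DMT1 (Slc11a2) and NRAMP1 (Slc11a1) move ferrous iron and other metals across vesicle membranes, and ferroportin (Slc40a1) is the only known iron exporter of mammalian cells. Ferritin, a shell of heavy (Fth1) and light (Ftl1) chains, stores iron, and heme oxygenase 1 (Hmox1) releases it from heme. Iron regulatory proteins, of which Ireb2 encodes one, bind stem loops called iron-responsive elements in messenger RNA when iron is scarce, which blocks translation from an element in the 5′ UTR and protects the transcript from an element in the 3′ UTR. During infection macrophages hold iron back from bacteria, and lipocalin-2 binds the siderophores with which bacteria collect it. C57BL/6 mice carry a loss-of-function allele of Slc11a1.

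Matches to a strict pattern of the iron-responsive element are shown because they connect 4 of the 9 genes whose RNA is described below. The UTRs of protein-coding transcripts in GENCODE M21 (GRCm38) were searched on the transcribed strand for a C, a stem arm of 5 bases, the 6-base loop CAGTGN and the other stem arm of 5 bases, with all 5 pairs of the stem formed and G-T pairs allowed. The pattern was found in the 5′ UTR of Fth1, Ftl1 and Slc40a1 (1 match each) and in the 3′ UTR of Tfrc (4 matches), and these letters were not found in the UTRs of the other 5 members. Over all genes with a UTR it was present in 0.151% of 5′ UTRs (31 of 20597 genes) and in 0.615% of 3′ UTRs (129 of 20979). Each match is printed 5′ to 3′ with 6 more bases on each side and the loop in capitals. The matches are descriptions of sequence, and binding was not measured. An element with an unpaired base in the 5-pair stem would be missed, so the search does not show that the other 5 members lack one.
Fth1, 5′ UTR, chr19:9982732-9982760, plus strand: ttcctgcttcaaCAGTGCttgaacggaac
Ftl1, 5′ UTR, chr7:45459779-45459807, minus strand: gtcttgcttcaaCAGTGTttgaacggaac
Slc40a1, 5′ UTR, chr1:45925465-45925493, minus strand: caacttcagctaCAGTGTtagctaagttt
Tfrc match 1, 3′ UTR, chr16:32631219-32631247, plus strand: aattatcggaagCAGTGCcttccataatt
Tfrc match 2, 3′ UTR, chr16:32631598-32631626, plus strand: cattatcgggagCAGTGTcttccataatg
Tfrc match 3, 3′ UTR, chr16:32631663-32631691, plus strand: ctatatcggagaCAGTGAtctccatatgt
Tfrc match 4, 3′ UTR, chr16:32631710-32631738, plus strand: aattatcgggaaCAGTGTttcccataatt

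The cells carried the RNA of macrophages. Of 10 macrophage markers 9 had a value, with Lyz2 between 5944 and 13291 FPKM and Csf1r between 277 and 538 FPKM, while Itgam was not listed. Their summed level was 16459 to 19464 FPKM in the control libraries and 11437 to 13677 FPKM in the LPS libraries. Summed markers of mesothelium and fibroblasts (7 of 8 listed) were 26.9 to 43.9 FPKM in TLR4-WT control libraries and 104 to 235 FPKM in TLR4-K810R control libraries, and those of intestinal epithelium (10 of 11 listed) were 0.118 to 0.594 FPKM and 14.2 to 58.1 FPKM in the same groups, with 8.75 to 39.9 FPKM in TLR4-K730R control libraries. With LPS the sums of TLR4-WT and TLR4-K810R overlapped. They were 39.2 to 124 and 92.7 to 111 FPKM for mesothelium and fibroblasts, and 0 to 11.9 and 0.127 to 6.19 FPKM for intestinal epithelium. In TLR4-K730R with LPS the sums were 43.2 to 44.1 FPKM and 11.3 to 16.1 FPKM. Erythroid markers (6 of 9 listed), which mark cells rich in iron and heme, summed to at most 8.77 FPKM in any library, and B cell markers (4 of 5 listed) to at most 3.66 FPKM. The part of these cells in the results below was not tested. Tlr4 itself fell with LPS in all 3 genotypes, from 11.7 ± 2.41 to 5.17 ± 0.497 FPKM (SD, n = 3) in TLR4-WT (limma, adjusted p = 2.71e-05), and no mutant differed from TLR4-WT in its level (limma, adjusted p from 0.715 to 0.900). A codon change does not show in a gene's level, so this does not check the labels.

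Lcn2, Hmox1 and Tfrc changed with LPS in all 3 genotypes, and the ferritin genes and Slc11a2 were called in some of them. In TLR4-WT macrophages Lcn2 and Hmox1 rose and Tfrc and Ftl1 fell, 4 of 9 members, against 34.3% of all genes tested (10.4% higher and 23.9% lower). In TLR4-K730R macrophages Lcn2 and Hmox1 rose and Tfrc and Ftl1 fell, against 35.8% of all genes (9.32% higher and 26.5% lower). In TLR4-K810R macrophages Lcn2, Hmox1, Fth1 and Slc11a2 rose and Tfrc fell, against 28.8% of all genes (9.08% higher and 19.7% lower). A gene was called changed at an adjusted p below 0.01 in limma, on log2(FPKM + 1) with all 6 groups in 1 fit and Benjamini-Hochberg adjustment over the 9707 genes. The median log2 difference of the 9 members was 0.048, -0.088 and 0.34 in the TLR4-WT, TLR4-K730R and TLR4-K810R cells, and that of all genes tested was -0.28, -0.36 and -0.26. The fold values below are on the scale of FPKM + 1, which understates the change of low genes.

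The FPKM were used as deposited, and the median gene was lower with LPS. Scaling the libraries by the median of their gene ratios moved the median of all genes by 0.26, 0.32 and 0.23 (log2) in the 3 genotypes, and turned the share of higher calls among all calls from 30.4%, 26.1% and 31.5% into 52.2%, 53.5% and 51.5%. With that scaling 4, 5 and 5 of the members were called, beside 29.7%, 29% and 24.1% of all genes. Of all genes 15.5%, 15.5% and 12.4% were then higher with LPS and 14.2%, 13.5% and 11.7% lower. Among the members the scaling changed calls with LPS only for the ferritin genes and Slc11a2. It also turned the sign of uncalled differences of Ftl1, Slc11a1 and Ireb2. Scaled values are given below for these genes and for Slc40a1.

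Lcn2 showed the largest difference of the 9 members. The gene lies on the minus strand at chr2:32384633-32388252 of GRCm38. In TLR4-WT macrophages it was listed at 1.34, 1.07 and 1.20 FPKM without LPS and at 387, 311 and 286 FPKM with LPS. The groups were far apart and did not overlap. The log2 difference was 7.21 ± 0.24 (SE), or 148-fold (limma, adjusted p = 5.17e-12).

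The mutants induced Lcn2 strongly as well. In TLR4-K730R cells the control libraries held 1.32, 2.88 and 1.12 FPKM and the LPS libraries 179, 256 and 263 FPKM, a log2 difference of 6.43 ± 0.24 (limma, adjusted p = 1.32e-11). In TLR4-K810R cells the control libraries held 2.07, 0.824 and 2.42 FPKM and the LPS libraries 236, 269 and 253 FPKM, a log2 difference of 6.56 ± 0.24 (limma, adjusted p = 9.63e-12). All 6 mutant libraries with LPS lay below all 3 TLR4-WT libraries with LPS, and those of the mutants overlapped each other. How many of all genes separate in this way, here or below, was not counted, so a separation alone is not a call.

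The lower Lcn2 of the mutants did not pass the test. With LPS the mean was 328 ± 52.3 FPKM (SD, n = 3) in TLR4-WT, 233 ± 46.7 FPKM in the TLR4-K730R libraries and 253 ± 16.7 FPKM in those of TLR4-K810R. The log2 difference from TLR4-WT was -0.50 in TLR4-K730R (95% interval -1.02 to 0.012, limma, adjusted p = 0.665) and -0.37 in TLR4-K810R (interval -0.88 to 0.15, limma, adjusted p = 0.407). The LPS response itself differed by -0.78 (interval -1.51 to -0.056, limma, adjusted p = 0.681) and by -0.65 (interval -1.38 to 0.080, limma, adjusted p = 0.440). The first of these intervals did not reach 0 before adjustment over all genes, and neither response was called different. In the controls the 3 genotypes overlapped, at 1.20 ± 0.131, 1.77 ± 0.962 and 1.77 ± 0.838 FPKM.

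Neutrophils also store lipocalin-2 in their granules, so their markers are given beside it. Of 12 markers 11 had a value, with a sum of 72.6 to 99.7 FPKM in control libraries and 224 to 295 FPKM in LPS libraries. S100a8 and Csf3r, which macrophages also express, reached 239 and 67.4 FPKM. The granule gene Mmp8 was present in every library, at 4.97 to 20.6 FPKM. The other 8 were listed at 0 in at least 1 library and reached 6.38 FPKM for Camp, 2.67 for Retnlg, 2.23 for S100a9, 1.0 for Ltf, 0.644 for Ly6g, 0.610 for Mpo, 0.132 for Cxcr2 and 0.121 for Ngp, and Elane was not listed. Their part in the level of Lcn2 was not tested. The value of Lcn2 came from the last exon alone in all 18 libraries. In bulk RNA, fewer cells of a type and less RNA per cell cannot be told apart.

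**Figure D1:**
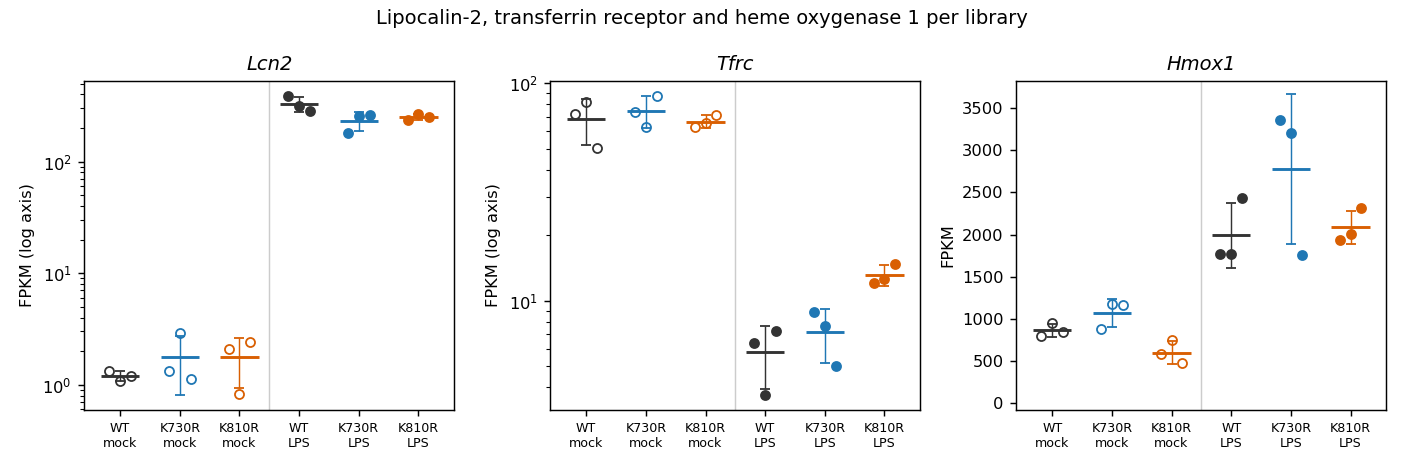
FPKM of Lcn2 and Tfrc (log axes) and of Hmox1 (linear axis) in each of the 18 libraries, by genotype and treatment. Open points are mock-treated and filled points LPS-treated libraries, long bars are means and thin bars the SD of 3 libraries. Lcn2 goes from at most 2.88 to at least 179 FPKM, Tfrc goes the other way, and the 3 LPS libraries of TLR4-K810R (12.1 to 14.7 FPKM) lie above the other 6 LPS libraries in Tfrc.

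Tfrc, the gene of iron uptake from transferrin, fell in every genotype. The gene lies on the plus strand at chr16:32608920-32632794. In TLR4-WT macrophages the control libraries held 71.9, 82.1 and 50.6 FPKM and the LPS libraries 6.41, 3.69 and 7.28 FPKM, a log2 difference of -3.36 ± 0.23 (limma, adjusted p = 7.80e-09). In TLR4-K730R cells 73.7, 63.1 and 87.3 FPKM stood against 8.91, 7.67 and 4.99 FPKM, a log2 difference of -3.23 ± 0.23 (limma, adjusted p = 1.12e-08). The LPS libraries of these genotypes overlapped, and in each all of them lay below all controls.

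In TLR4-K810R cells Tfrc fell as well, to a higher level. The control libraries held 62.7, 65.7 and 71.4 FPKM and the LPS libraries 12.1, 12.5 and 14.7 FPKM, a log2 difference of -2.26 ± 0.23 (limma, adjusted p = 8.29e-07). All 3 of these LPS libraries lay above all 6 LPS libraries of the other genotypes, while the controls of the 3 genotypes overlapped. Against TLR4-WT with LPS the log2 difference was 1.09 (interval 0.61 to 1.58), which missed the threshold of 0.01 (limma, adjusted p = 0.0301). It passed when the libraries were weighted by their quality (limma, adjusted p = 0.00470) and without the third TLR4-WT library with LPS (limma, adjusted p = 0.00745), settings in which 3.77% and 2.92% of all genes were called. Its adjusted p ranged up to 0.123 with 1 library left out and was 0.182 with only the compared groups in the fit (limma). The LPS response of TLR4-K810R cells differed from the TLR4-WT response by 1.1 (interval 0.41 to 1.79, limma, adjusted p = 0.153), and that of TLR4-K730R cells by 0.13 (interval -0.55 to 0.82, limma, adjusted p = 0.958). Of all genes tested, 0.134% were called when LPS-treated TLR4-K810R cells were set against TLR4-WT cells, and 0.124% in the matching test of the responses.

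The second importer, Slc11a2, went the opposite way to Tfrc. DMT1, its product, carries ferrous iron out of the endosome after the transferrin receptor has delivered it. Values were 26.7, 27.3 and 27.8 FPKM in TLR4-WT control libraries and 60.8, 49.8 and 39.9 FPKM with LPS, a log2 difference of 0.84 ± 0.32 that was not called (limma, adjusted p = 0.0417). In TLR4-K730R cells 35.6, 23.7 and 25.9 FPKM stood against 69.9, 45.1 and 68.7 FPKM, a log2 difference of 1.08 ± 0.32, just outside the threshold (limma, adjusted p = 0.0110). The latter passed with the replicate number as a block (limma, adjusted p = 0.00569), with library weights (limma, adjusted p = 0.00491) and with only the compared groups in the fit (limma, adjusted p = 0.00783), and the TLR4-WT difference passed with the last 2 of these (limma, adjusted p = 0.00817 and 0.00582). In both genotypes every LPS library was above every control library.

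Slc11a2 rose in TLR4-K810R cells, from 38, 24.9 and 10.8 FPKM to 71.0, 71.4 and 56.0 FPKM, a log2 difference of 1.55 ± 0.32 (limma, adjusted p = 0.00103). The call was lost with only the compared groups in the fit (limma, adjusted p = 0.0271). The 3 control libraries of this group were widely spread, and the third was the lowest of all 18. With the libraries scaled by their gene ratios the difference was 1.16, 1.48 and 1.81 in the 3 genotypes (limma, adjusted p = 0.0123, 0.00244 and 0.000558). The responses of the mutants did not differ detectably from that of TLR4-WT, at 0.24 (interval -0.72 to 1.20) in TLR4-K730R and 0.71 (interval -0.25 to 1.67) in TLR4-K810R. All values came from first-exon events, since the last exon had a row in 5 of the 18 libraries, and the last exon alone gave -1.11 in TLR4-K810R (limma, adjusted p = 0.553).

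Slc11a1, the transporter of the phagosome membrane, was abundant and showed no called change. Its group means lay between 382 ± 22.7 FPKM (SD, n = 3, TLR4-WT control) and 492 ± 118 FPKM (TLR4-K730R control), and all neighbours in the order of the 6 groups overlapped. LPS changed it by 0.048 (interval -0.49 to 0.58), -0.088 (interval -0.62 to 0.45) and 0.34 (interval -0.20 to 0.87) on the log2 scale in TLR4-WT, TLR4-K730R and TLR4-K810R cells. With scaled libraries these were 0.38, 0.32 and 0.61 (limma, adjusted p = 0.250, 0.332 and 0.0712). Over all alternatives the TLR4-WT value ranged from -0.32 to 0.38. The comparison reads the RNA of the gene and not the function of its allele.

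Slc40a1, the exporter, was scarce in all groups. TLR4-WT control libraries held 1.12, 1.82 and 1.44 FPKM and LPS libraries 0.248, 1.70 and 0.725 FPKM, so the groups overlapped. TLR4-K730R libraries held 1.11, 1.30 and 1.34 FPKM and, with LPS, 0.659, 0.546 and 0.411 FPKM. TLR4-K810R control libraries held 1.01, 0.753 and 0.878 FPKM, and with LPS the gene was listed at 0.322 FPKM in 1 library and at 0 in 2. The LPS libraries of both mutants lay below their own controls without overlap.

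None of these differences of Slc40a1 was called. The log2 differences were -0.44 (limma, adjusted p = 0.125), -0.55 (limma, adjusted p = 0.0589) and -0.77 (limma, adjusted p = 0.0132) in TLR4-WT, TLR4-K730R and TLR4-K810R cells. With scaled libraries they were smaller, at -0.27, -0.37 and -0.66 (limma, adjusted p = 0.401, 0.249 and 0.0462). Without the second TLR4-WT library with LPS the difference in TLR4-WT was -0.74 and passed (limma, adjusted p = 0.00880). With other libraries left out 1 at a time the difference reached -0.18, with an adjusted p up to 0.540 (limma). In TLR4-K810R it passed with a pseudocount of 0.1 (-2.59, limma, adjusted p = 0.00247) and with no variance trend (limma, adjusted p = 0.00896). With last-exon events only it passed in TLR4-WT (-0.92, limma, adjusted p = 0.000520) and in TLR4-K810R (-0.90, limma, adjusted p = 0.000709). In that setting no LPS library exceeded 0.652 FPKM. The gene then passed the filter through control libraries alone, where it is high, so these last-exon calls carry no support. With the larger exon end, only 1 LPS library, the second of TLR4-WT, reached 1 FPKM. A value of 0 in these files means that no event of the gene had a row, and the depth behind it is unknown.

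**Figure D2:**
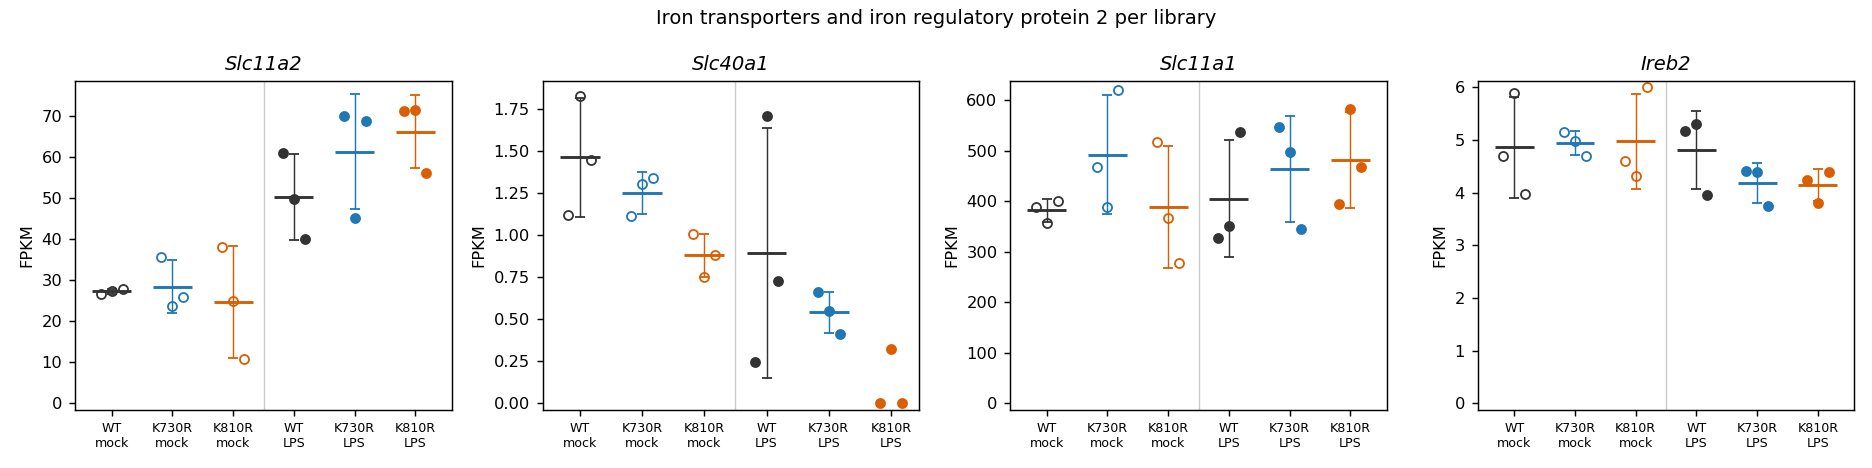
FPKM of Slc11a2, Slc40a1, Slc11a1 and Ireb2 in each library, on linear axes, with open points for mock-treated and filled points for LPS-treated libraries, means as long bars and the SD of 3 libraries as thin bars (none where a library is listed at 0). The LPS libraries lie above the controls of the same genotype in Slc11a2, while Slc11a1 and Ireb2 overlap between nearly all groups.

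Storage genes were the most abundant members, and the heavy chain was called in TLR4-K810R cells (higher with LPS) and the light chain in the other genotypes (lower). The calls do not separate the genotypes, since with library weights both chains were called in TLR4-WT (Ftl1 still passed, and Fth1 passed at 1.18, limma, adjusted p = 0.00417). Fth1 lies at chr19:9980598-9985098 on the plus strand and Ftl1 at chr7:45457944-45459884 on the minus strand. In TLR4-WT macrophages Fth1 was at 9374, 9945 and 12927 FPKM in control libraries and at 23021, 24516 and 19086 FPKM with LPS, a log2 difference of 1.05 ± 0.34 (limma, adjusted p = 0.0200). In TLR4-K730R cells 8011, 9924 and 15035 FPKM stood against 21959, 19797 and 15418 FPKM, a log2 difference of 0.83 ± 0.34 (limma, adjusted p = 0.0579). Neither was called, although every LPS library lay above every control library of its genotype. These values use the larger of the exon ends. In the first TLR4-WT library with LPS the last exon gave 23021 FPKM and the first exon 3226 FPKM, because a first-exon event of 19823 FPKM that starts upstream of the annotated gene was left out, and with it the first exon gave 23049 FPKM. With first-exon events only, and that event left out, the TLR4-WT difference was 0.11 (limma, adjusted p = 0.897).

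Fth1 rose in TLR4-K810R cells, from 6540, 7167 and 15004 FPKM to 39663, 18654 and 16711 FPKM, a log2 difference of 1.38 ± 0.34 (limma, adjusted p = 0.00448). The first LPS library held more than any other of the 18. Without it the difference was 0.99 and was not called (limma, adjusted p = 0.0271), and it was also lost without the first control library (1.16, limma, adjusted p = 0.0267) or the second (1.22, limma, adjusted p = 0.0226). The call was lost too with first-exon events within the annotated gene only (1.33, limma, adjusted p = 0.0800), with no filter on low values (limma, adjusted p = 0.0274) and with only the compared groups in the fit (limma, adjusted p = 0.0506). With scaled libraries the difference passed in all 3 genotypes, at 1.38, 1.24 and 1.65 (limma, adjusted p = 0.00364, 0.00784 and 0.00112).

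Ftl1 fell with LPS in TLR4-WT and TLR4-K730R cells and not detectably in TLR4-K810R cells, and with scaled libraries it was called in none. The TLR4-WT libraries held 11667, 11132 and 17155 FPKM without and 9053, 6499 and 8510 FPKM with LPS, a log2 difference of -0.72 ± 0.18 (limma, adjusted p = 0.00441). It was not called without the third control library (-0.52, limma, adjusted p = 0.0284) or the second LPS library (-0.57, limma, adjusted p = 0.0286), with no filter on low values (limma, adjusted p = 0.0629) or with only the compared groups in the fit (limma, adjusted p = 0.0331). The TLR4-K730R libraries held 13061, 15617 and 13372 FPKM without and 7600, 9134 and 6787 FPKM with LPS, a log2 difference of -0.84 ± 0.18 (limma, adjusted p = 0.00128) that was not called with no filter (limma, adjusted p = 0.0289). In both genotypes all LPS libraries lay below all control libraries.

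The TLR4-K810R libraries overlapped in Ftl1, at 11388, 12194 and 10191 FPKM without and 11481, 9357 and 9702 FPKM with LPS, a log2 difference of -0.15 (interval -0.54 to 0.24, limma, adjusted p = 0.552). The response differed from that of TLR4-WT by 0.57 (interval 0.020 to 1.12), which was not called (limma, adjusted p = 0.357). With LPS all 3 TLR4-K810R libraries lay above all 3 TLR4-WT libraries, a log2 difference of 0.35 that was not called (limma, adjusted p = 0.279). With scaled libraries the LPS differences were -0.39, -0.43 and 0.13 (limma, adjusted p = 0.104, 0.0719 and 0.635).

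The ratio of heavy to light chain within a library does not depend on the scaling. Fth1 over Ftl1 was 0.817 ± 0.0709 (SD, n = 3) in TLR4-WT control libraries and 2.85 ± 0.811 with LPS. It was 0.791 ± 0.289 and 2.44 ± 0.390 in TLR4-K730R cells, and 0.878 ± 0.515 and 2.39 ± 0.932 in TLR4-K810R cells. The lowest LPS library (1.72) lay above the highest control library (1.47) over all 18. Last-exon events alone also kept them apart, at 0.536 to 1.45 in control and 1.68 to 3.77 in LPS libraries. First-exon events alone kept them apart when the events upstream of the annotated gene were counted (0.574 to 1.47 and 1.72 to 3.77). Without those events they did not, since the first TLR4-WT library with LPS then had a ratio of 0.356, below all 9 controls. The ratio and these alternatives were chosen after the values were seen, and the ratio was not tested. The mouse genome holds many processed copies of both ferritin genes, and how reads shared with them were assigned is not given in the sources used here.

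**Figure D3:**
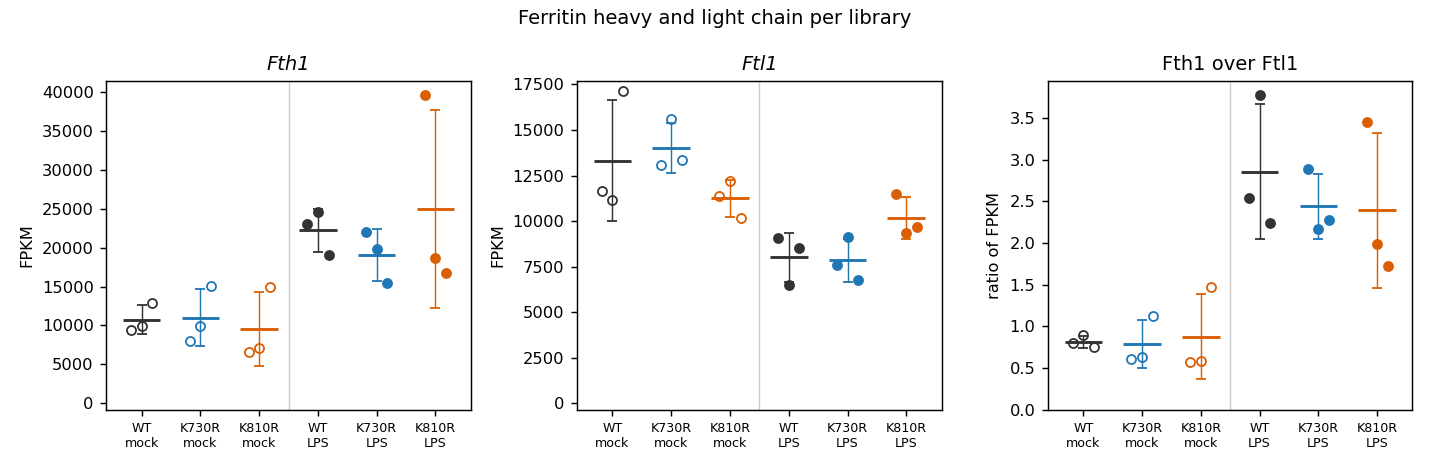
FPKM of Fth1 and Ftl1 and their ratio in each library, on linear axes from 0, with open points for mock-treated and filled points for LPS-treated libraries, means as long bars and the SD of 3 libraries as thin bars. With the larger exon end of each gene, as plotted, the ratio is at most 1.47 in the 9 control and at least 1.72 in the 9 LPS libraries (first-exon events within the annotated gene alone put 1 LPS library at 0.356), and 1 TLR4-K810R library with LPS holds 39663 FPKM of Fth1.

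Hmox1, which opens the heme ring and sets its iron free, rose in all 3 genotypes. It lies at chr8:75093621-75100589 on the plus strand, and both its ends were listed within 1.1 times of each other in all 18 libraries. In TLR4-WT macrophages the control libraries held 804, 953 and 840 FPKM and the LPS libraries 1772, 1765 and 2434 FPKM, a log2 difference of 1.19 ± 0.23 (limma, adjusted p = 0.000493). In TLR4-K730R cells 880, 1172 and 1163 FPKM stood against 3365, 3205 and 1756 FPKM, a log2 difference of 1.33 ± 0.23 (limma, adjusted p = 0.000176). The third TLR4-K730R library with LPS was the lowest LPS library of all and still above every control.

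In TLR4-K810R cells Hmox1 started lower, at 579, 745 and 482 FPKM, and reached 1937, 2006 and 2313 FPKM, a log2 difference of 1.81 ± 0.23 (limma, adjusted p = 9.82e-06). All 3 control libraries lay below all 3 TLR4-WT control libraries, and the log2 difference of -0.54 (interval -1.03 to -0.057) was not called (limma, adjusted p = 0.282). With LPS the 3 genotypes overlapped. The response exceeded that of TLR4-WT by 0.62 (interval -0.063 to 1.31), which was not called either (limma, adjusted p = 0.433).

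Ireb2, the iron regulatory protein among the members, showed no called change. Its group means lay between 4.14 ± 0.305 FPKM (SD, n = 3, TLR4-K810R with LPS) and 4.98 ± 0.904 FPKM (TLR4-K810R control), and all neighbours in the order overlapped. In TLR4-K730R all 3 LPS libraries (3.75 to 4.42 FPKM) lay below all 3 controls (4.70 to 5.16 FPKM), and in the other genotypes the libraries overlapped. The log2 differences with LPS were -0.0081 (interval -0.32 to 0.30), -0.20 (interval -0.51 to 0.11) and -0.21 (interval -0.52 to 0.10). With scaled libraries their sign turned, to 0.27, 0.14 and 0.018 (limma, adjusted p = 0.152, 0.476 and 0.940), so no direction is shown. The activity of this protein is set by its breakdown when iron is present, which RNA does not show.

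No member was called between a mutant and TLR4-WT. Among the controls 0 of 9 were called in TLR4-K730R and 0 of 9 in TLR4-K810R by limma, against 0.268% and 1.58% of all genes tested, with 0 and 1 members at an unadjusted p below 0.05 (Hmox1 in TLR4-K810R) beside 7.7% and 14.1% of all genes. With LPS 0 of 9 were called in TLR4-K730R, where 0% of all genes were called too, and 0 of 9 in TLR4-K810R against 0.134% of all genes, with 0 and 2 members at an unadjusted p below 0.05 (Tfrc and Slc40a1 in TLR4-K810R) beside 7.69% and 21.8% of all genes. In the difference of LPS responses 0 of 9 were called in either mutant, against 0.0412% (TLR4-K730R) and 0.124% (the other mutant) of all genes, with 1 (Lcn2) and 2 members (Tfrc and Ftl1) at an unadjusted p below 0.05 beside 7.02% and 13.2% of all genes. The comparisons of the mutants share the TLR4-WT libraries. The intervals above bound what these 3 libraries a group allow, and a p above the threshold does not show that genotypes were alike.

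**Figure D4:**
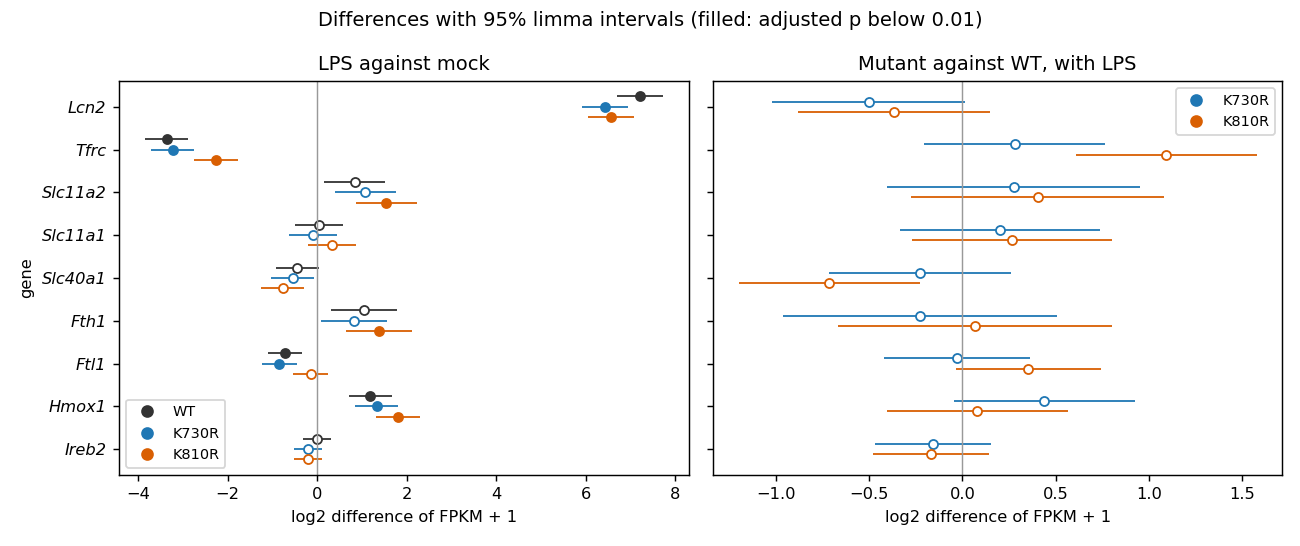
Log2 difference of FPKM + 1 with its 95% limma interval for the 9 members, LPS against mock in each genotype (left) and each mutant against TLR4-WT with LPS (right, on a narrower axis), filled where the adjusted p was below 0.01. On the left Lcn2 stands at 6.43 to 7.21 and Tfrc at -3.36 to -2.26, and on the right no point is filled, with Tfrc in TLR4-K810R at 1.09 the farthest above 0.

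Other genes of iron handling were taken from lists of 72 genes, of which 59 had a value and 46 were tested. With LPS 7 of the 46 rose and 19 fell in TLR4-WT, 7 rose and 20 fell in TLR4-K730R, and 5 rose and 15 fell in TLR4-K810R. As shares these were 15.2% and 41.3%, 15.2% and 43.5%, and 10.9% and 32.6%, beside 10.4% and 23.9%, 9.32% and 26.5%, and 9.08% and 19.7% of all genes tested. With scaled libraries the counts were 7 and 16, 8 and 15, and 7 and 12, beside 15.5% and 14.2%, 15.5% and 13.5%, and 12.4% and 11.7% of all genes. Their median log2 difference was -0.57, -0.68 and -0.43, beside -0.28, -0.36 and -0.26 for all genes. With scaled libraries it was -0.30, -0.40 and -0.22, beside -0.011, -0.036 and -0.032 for all genes. None of the 46 was called between a mutant and TLR4-WT or in the difference of responses (limma).

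Of 6 tested genes of import and reduction 1 rose and 3 fell in TLR4-WT, beside 10.4% and 23.9% of all genes, with the same counts in scaled libraries beside 15.5% and 14.2%. Steap3, the ferrireductase of the endosome, fell by 2.69 ± 0.32 on the log2 scale, from 18.2 to 2.25 FPKM (limma, adjusted p = 5.11e-06). Mcoln1, a channel that releases iron from lysosomes, had a log2 difference of -1.28 ± 0.19 and Trf, transferrin, of -1.04 ± 0.14, though the last exon alone gave 0.55 for Trf. Slc39a14, an importer of iron that is not bound to transferrin, rose from 3.41 ± 0.262 to 17.5 ± 6.31 FPKM (SD, n = 3), a log2 difference of 2.0 ± 0.26 (limma, adjusted p = 1.22e-05).

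Of 6 tested genes of export and control 2 rose and 2 fell in TLR4-WT, beside the same 10.4% and 23.9% of all genes (2 and 1 with scaled libraries, beside 15.5% and 14.2%). The counts were 2 and 2 in TLR4-K730R, beside 9.32% and 26.5% of all genes. In TLR4-K810R 0 rose and only Hfe fell, beside 9.08% and 19.7%, and none was called with scaled libraries, beside 12.4% and 11.7%. Whether the genotypes differ is not shown by this, since no gene of the list was called in the difference of responses. Cp, ceruloplasmin, the ferroxidase that works with ferroportin, rose from 0.787 to 7.31 FPKM, a log2 difference of 2.20 ± 0.41 (limma, adjusted p = 0.000401). The TLR4-K730R call of Cp (limma, adjusted p = 0.00979) was lost with library weights (0.0105), the replicate block (0.0156) and only the compared groups (0.0239), among other settings. In TLR4-K810R Cp was called with first-exon events only (limma, adjusted p = 0.00862). Hamp, hepcidin, the hormone that removes ferroportin from the membrane, was listed at 0 in all 3 TLR4-WT control libraries and at 3.47, 1.71 and 0.886 FPKM with LPS. It reached 1 FPKM in LPS libraries alone and so passed the filter only through the group where it is high. Its calls in TLR4-WT and TLR4-K730R therefore carry no support. In each genotype the call is 1 of the 2 counted as risen in this list and 1 of the 7 over all lists. Aco1, the other iron regulatory protein, fell by 1.16 ± 0.18 on the log2 scale (limma, adjusted p = 6.37e-05), and Hfe, a regulator of hepcidin, had a log2 difference of -1.13 ± 0.27 (limma, adjusted p = 0.00273). The call of Hfe was lost with scaled libraries (limma, adjusted p = 0.0155), library weights (0.0115), only the compared groups (0.0153) and without the second (0.0169) or the third LPS library (0.0147).

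Of 18 tested heme genes 2 rose (11.1%) and 9 fell (50%) in TLR4-WT, beside 10.4% and 23.9% of all genes, and with scaled libraries 2 rose and 7 fell, beside 15.5% and 14.2%. Hp, haptoglobin, which binds free hemoglobin, rose from 268 ± 22.6 to 1011 ± 239 FPKM (SD, n = 3), a log2 difference of 1.89 ± 0.14 (limma, adjusted p = 2.90e-08). The other 5 of the 6 largest differences were negative: Flvcr1, a heme exporter, -1.52, Bach1, the heme-sensing repressor of Hmox1, -1.40, Blvra, biliverdin reductase, -1.39, Urod, an enzyme of heme synthesis, -1.39 and Lrp1, the receptor for hemopexin and heme, -1.31. Bach1 went from 22.5 ± 2.05 to 7.88 ± 0.659 FPKM (SD, n = 3).

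Of 15 tested genes of mitochondrial iron and iron-sulfur clusters 1 rose (6.67%) and 5 fell (33.3%) in TLR4-WT, beside 10.4% and 23.9% of all genes, and the counts were the same with scaled libraries, beside 15.5% and 14.2%. Slc25a37, mitoferrin 1, which carries iron into mitochondria, rose from 4.96 ± 0.901 to 32.5 ± 2.70 FPKM (SD, n = 3), a log2 difference of 2.5 ± 0.22 (limma, adjusted p = 1.21e-07). Among the genes that fell the difference was -1.91 for Abcb8, -1.73 for the cochaperone Hscb, -1.14 for Cisd1 and -1.04 for the cysteine desulfurase Nfs1. Of the 3 genes listed as partners of lipocalin-2 only Mmp9 was tested, the protease that lipocalin-2 can bind, and it rose by 1.08, 2.24 and 2.91 on the log2 scale in the 3 genotypes (limma, adjusted p = 0.00393, 5.30e-06 and 3.65e-07). The TLR4-WT call of Mmp9 was lost without the third LPS library (0.72, limma, adjusted p = 0.0179), without the first or the second control library (limma, adjusted p = 0.0147 and 0.0131) and with only the compared groups in the fit (limma, adjusted p = 0.0218).

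**Figure D5:**
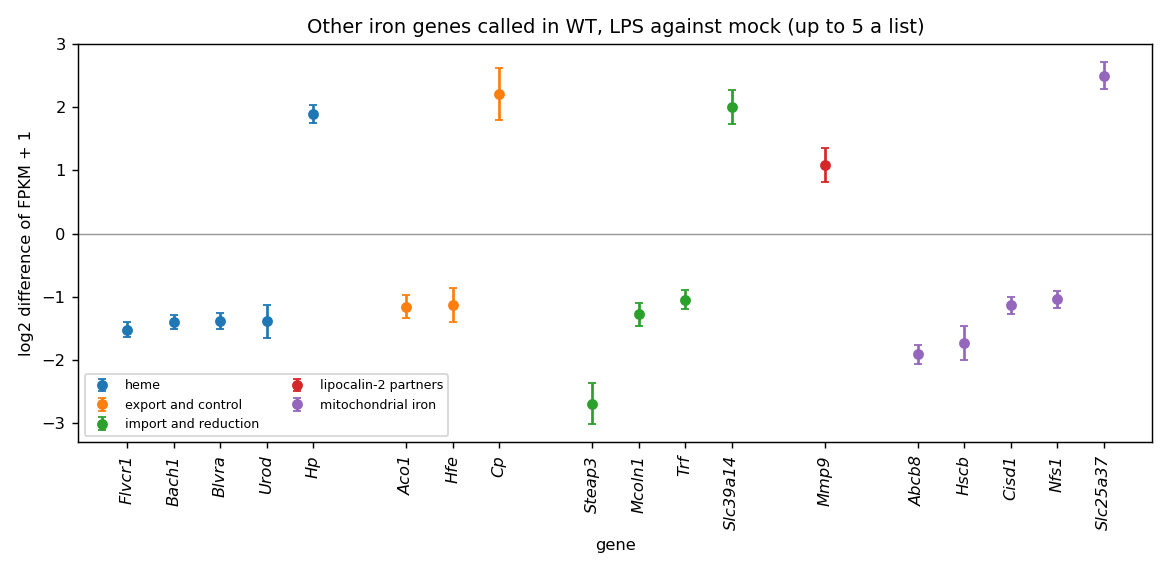
Log2 difference of FPKM + 1 (LPS against mock) in TLR4-WT macrophages for 18 iron genes with an adjusted p below 0.01, those with up to the 5 largest differences in each list, with bars for the SE. Hamp, which also passed, is left out since its control libraries are listed at 0. Slc25a37 at 2.5 and Steap3 at -2.69 are the ends of the range.

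The genes most like a member over the 18 libraries were named by Pearson's r of log2(FPKM + 1), as a description without a test, since the LPS and control libraries form separate clusters that fix most of each value. For Lcn2 these were Marcksl1, Apol9b, U90926, Upp1 and Gbp5, with r from 0.993 to 0.996. Within the 9 control and within the 9 LPS libraries alone, r was 0.183 to 0.662 and 0.315 to 0.605. For Tfrc they were Idh1, Myo5a, Mrpl42, Prkch and Adss (r from 0.988 to 0.992), with r from -0.231 to 0.780 within the controls and from 0.853 to 0.965 within the LPS libraries. For Hmox1 they were Acpp, F3, Clec4d, Prkar2b and Sqor (r from 0.965 to 0.972), with at least 0.788 within the controls and 0.871 within the LPS libraries. For the scarce Slc40a1 they were Zfp949, Fpgt, Cd5l, Lmo2 and Wnk1 (r from 0.817 to 0.848), with at least 0.556 within the controls and 0.642 within the LPS libraries.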

How the data were processed

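RNA-seq was measured in 18 libraries of peritoneal macrophages, 3 in each of 6 groups, which follow the labels. Per the study's methods RNA was isolated with a column kit and sequencing was done on Illumina instruments by a company. The aligner, the counting program and the test are not given in the sources used here. The authors deposited FPKM values, normalized for transcript length and library, in one row per transcript event (80071 to 90401 rows a library). The submitters' processing notes name hg18, while the coordinates and the mouse Ensembl numbers fit GRCm38 (14126 of 14138 numbers were in GENCODE M21). Read counts and therefore depth are unknown.

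FPKM of a gene's first-exon events and of its last-exon events were summed separately, and the larger sum was used. Events off the gene's strand or outside its span were dropped, which left out 5.99% of their FPKM. Genes reaching 1 FPKM in 3 or more of the 18 libraries were tested with limma 3.58.1 (R 4.3.3) on log2(FPKM + 1), with a variance trend on mean expression and adjustment by Benjamini-Hochberg in each of 9 comparisons. The threshold of 0.01 is the study's. The intervals are for 1 gene and are not adjusted. The test was tried on simulated data. The named genes are the 9 members, the other iron genes called in TLR4-WT with up to the 6 largest differences a list, and the 5 genes most like Lcn2, Hmox1, Slc40a1 and Tfrc. Of these, 1 gene is not reported here. The members and lists were chosen with earlier results of these data known. Alternatives covered the exon end, strand check, pseudocount, filter, scaling, variance trend, library weights, libraries in the fit, replicate block, threshold and each library left out.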

Additional observations from a re-analysis of the deposited data

How the results depend on the processing

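Of 81 results on single members (9 genes in 9 comparisons) 13 were called, and 9 of the 13 were called under every alternative with a value. Over all alternatives 1548 values were computed, of which 1443 kept direction and call, 14 lost the call, 18 gained it, 72 turned sign without a call on either side and 1 called result reversed. That one was Slc11a2 in TLR4-K810R with LPS, at -1.11 (limma, adjusted p = 0.553) with last-exon events only, and the lost calls were those of Fth1, Ftl1 and Slc11a2. For the other iron genes, 1306 of 1377 values kept direction and call, 60 lost the call, 9 gained it, and Trf turned to 0.55 in TLR4-WT and 0 in TLR4-K810R with last-exon events only.

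The number of members called with LPS in TLR4-K810R went from 5 of 9 to 3 of 8 with first-exon events only, where Lcn2 has no value and Fth1 lost its call, and to 3 with only the groups compared in the fit. Leaving out each library in turn gave 3 to 4 called in TLR4-WT, 4 to 5 in TLR4-K730R and 4 to 5 in TLR4-K810R. Against TLR4-WT with LPS, TLR4-K810R went from 0 to 1 (Tfrc) with library weights (3.77% of all genes called) and with a threshold of 0.05 (2.19%), and leaving out each library gave 0 to 1, the 1 being without the third TLR4-WT library with LPS (2.92%). The other comparisons of the mutants stayed at 0 under the alternatives tried.

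The replicate numbers did not pair the samples: in 45 pairs with the same number the deviations from the group means correlated at -0.320 to 0.0993, none over 0.1. The replicate block gave 4, 5 and 5 members called with LPS in the 3 genotypes, in place of 4, 4 and 5 (32.3%, 33.9% and 27.2% of all genes called, in place of 34.3%, 35.8% and 28.8%), the added gene being Slc11a2 in TLR4-K730R (limma, adjusted p = 0.00569). The precision of a low value, such as those of Slc40a1, cannot be given without counts, and 3 libraries a group leave wide intervals for the mutants.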
